A study of Oryctolagus cuniculus with 134 samples.

Results

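The liver X receptors (LXR) are nuclear receptors that bind oxysterols, the oxidised derivatives of cholesterol, and switch on genes that move cholesterol out of cells. They work as pairs with the retinoid X receptors and are well known in the macrophages of atherosclerotic lesions. When sterols are plentiful, LXR targets are switched on and the targets of SREBP2, the factor that drives cholesterol synthesis and uptake, are switched off. Of the 29587 genes in the tables, 4 genes of this system are described here. NR1H3 encodes the receptor LXRα and is itself a target of LXR in macrophages. ABCA1 encodes the membrane transporter that hands cholesterol and phospholipids to apolipoprotein A-I. LPCAT3 encodes an enzyme that puts polyunsaturated fatty acids into membrane phospholipids. MYLIP, also called IDOL, encodes a ubiquitin ligase that sends lipoprotein receptors to degradation. They were picked as known LXR targets with their behaviour on the cholesterol-rich diet already seen, so values on that diet against control diet are given below as a description with no test. Of the 4, only ABCA1 moves cholesterol out of the cell itself.

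RNA was sequenced from the aorta and from the aortic, mitral, pulmonary and tricuspid valves of 27 male New Zealand White rabbits, 12 weeks old at the start of a 16-week protocol. The 7 Ctrl rabbits ate a normal diet. The 6 CHT rabbits ate a diet with 0.3% cholesterol, the 7 Lard rabbits a diet with 5% lard, and the 7 IR/CHT rabbits the cholesterol diet with 24 Gy of cardiac irradiation, given as 3 fractions of 8 Gy after 8 weeks. CHT, Lard and IR/CHT rabbits, but not Ctrl rabbits, also received 25000 U of vitamin D2 per day per 2.5 kg for 15 days, so cholesterol or lard cannot be told apart from vitamin D2 in any comparison with Ctrl. Irradiation on a normal diet was not analysed here. Each rabbit gave 1 library per tissue, apart from a Ctrl mitral valve that was not analysed here, which makes 134 libraries.

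Total counts ran from 13564979 to 50577676 per library, with a median of 18235577. Of the 29587 genes, 14450 (pulmonary valve) to 15408 (aortic valve) passed the filter on low counts and were tested, and all 4 genes described here passed in the 5 tissues. Raw counts per library were 339 to 43540 for ABCA1 (ENSOCUG00000009279), 726 to 7805 for MYLIP (ENSOCUG00000008005), 36 to 836 for LPCAT3 (ENSOCUG00000014461) and 25 to 1921 for NR1H3 (ENSOCUG00000002095), so the last 2 were read less deeply. In the tissue check, the summed level of 5 smooth muscle markers in Ctrl libraries was 72277 to 100267 CPM (counts scaled to library size) in the aorta, against 169.5 to 1318 CPM in the valves. The 5 heart muscle markers reached 35657 CPM in a Ctrl tricuspid valve and 11597 CPM in a Ctrl aortic valve, so some valve samples held heart muscle. In IR/CHT pulmonary valves, L176 stood apart with 20506 CPM of smooth muscle markers (group median 634) and L275 with 89.1 CPM of endothelial markers (group median 1307). The tables are split into plates 1 and 2, and the kind of plate is not given in the sources used here. All aortas were on plate 2, whereas the aortic and mitral valves of CHT rabbits were all on plate 1.

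NR1H3 was higher on the cholesterol diet in each of the 5 tissues. In the aorta its level was 2.29 to 7.56 CPM in Ctrl (median 5.84) and 14.8 to 36.4 CPM in CHT (median 29.0). The aortic valve went from 3.85 to 11.4 CPM in Ctrl (median 5.90) to 17.4 to 38.5 CPM in CHT (median 27.3). In the mitral valve the ranges were 5.87 to 8.91 CPM (median 7.87) and 22.4 to 51.0 CPM (median 31.8). No CHT library of these left-sided tissues (aorta, aortic valve and mitral valve) came down to the Ctrl range. Both right-sided valves also had groups that did not overlap, but closer together. For NR1H3 and the genes below, the share of all genes with groups that did not overlap was not counted. The pulmonary valve held 1.78 to 6.34 CPM in Ctrl (median 4.15) and 6.98 to 13.0 CPM in CHT (median 10.5), and the tricuspid valve 2.92 to 12.0 CPM (median 6.65) and 12.5 to 21.6 CPM (median 17.1). As fitted log2 fold changes, the differences were 2.37 (SE 0.27) in the aorta, 1.92 (SE 0.28) in the aortic valve, 2.18 (SE 0.22) in the mitral valve, 1.27 (SE 0.29) in the pulmonary valve and 1.36 (SE 0.29) in the tricuspid valve. Within plates 1 and 2 alone, they were 1.47 and 0.83 in the pulmonary valve and 1.70 and 0.70 in the tricuspid valve. In IR/CHT rabbits NR1H3 stood at medians of 41.4 CPM in the aorta, 68.1 CPM in the aortic valve, 51.1 CPM in the mitral valve, 13.3 CPM in the pulmonary valve and 27.3 CPM in the tricuspid valve. The log2 differences from the same Ctrl libraries were 2.95, 3.37, 2.69, 1.82 and 1.98, in that order of tissues.

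ABCA1 showed the largest differences of the 4 genes in every tissue. Aortas held 42.7 to 63.5 CPM in Ctrl (median 58.7) and 608 to 1122 CPM in CHT (median 710). Aortic valves held 26.6 to 101 CPM in Ctrl (median 56.3) and 598 to 1242 CPM in CHT (median 727). Mitral valves were alike, with 40.8 to 87.6 CPM in Ctrl (median 57.4) and 595 to 1011 CPM in CHT (median 841). The lowest CHT library of these tissues was thus several times the highest Ctrl library. ABCA1 started higher in Ctrl pulmonary valves, at 76.2 to 152.5 CPM (median 109), and stood at 546.4 to 755.6 CPM in CHT (median 621). The tricuspid valve held 59.5 to 148 CPM in Ctrl (median 111) and 488 to 810 CPM in CHT (median 684). The fitted fold change of CHT over Ctrl was 14.2 in the aorta (log2 3.83, SE 0.19), 15.0 in the aortic valve (3.91, SE 0.29), 13.7 in the mitral valve (3.77, SE 0.25), 5.52 in the pulmonary valve (2.47, SE 0.15) and 6.47 in the tricuspid valve (2.69, SE 0.21). In IR/CHT rabbits, the median was 877 CPM in the aorta, 1661 CPM in the aortic valve, 1081 CPM in the mitral valve, 801 CPM in the pulmonary valve and 768 CPM in the tricuspid valve, with log2 differences from Ctrl of 3.95, 4.96, 4.11, 2.86 and 2.94.

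**Figure D1:**
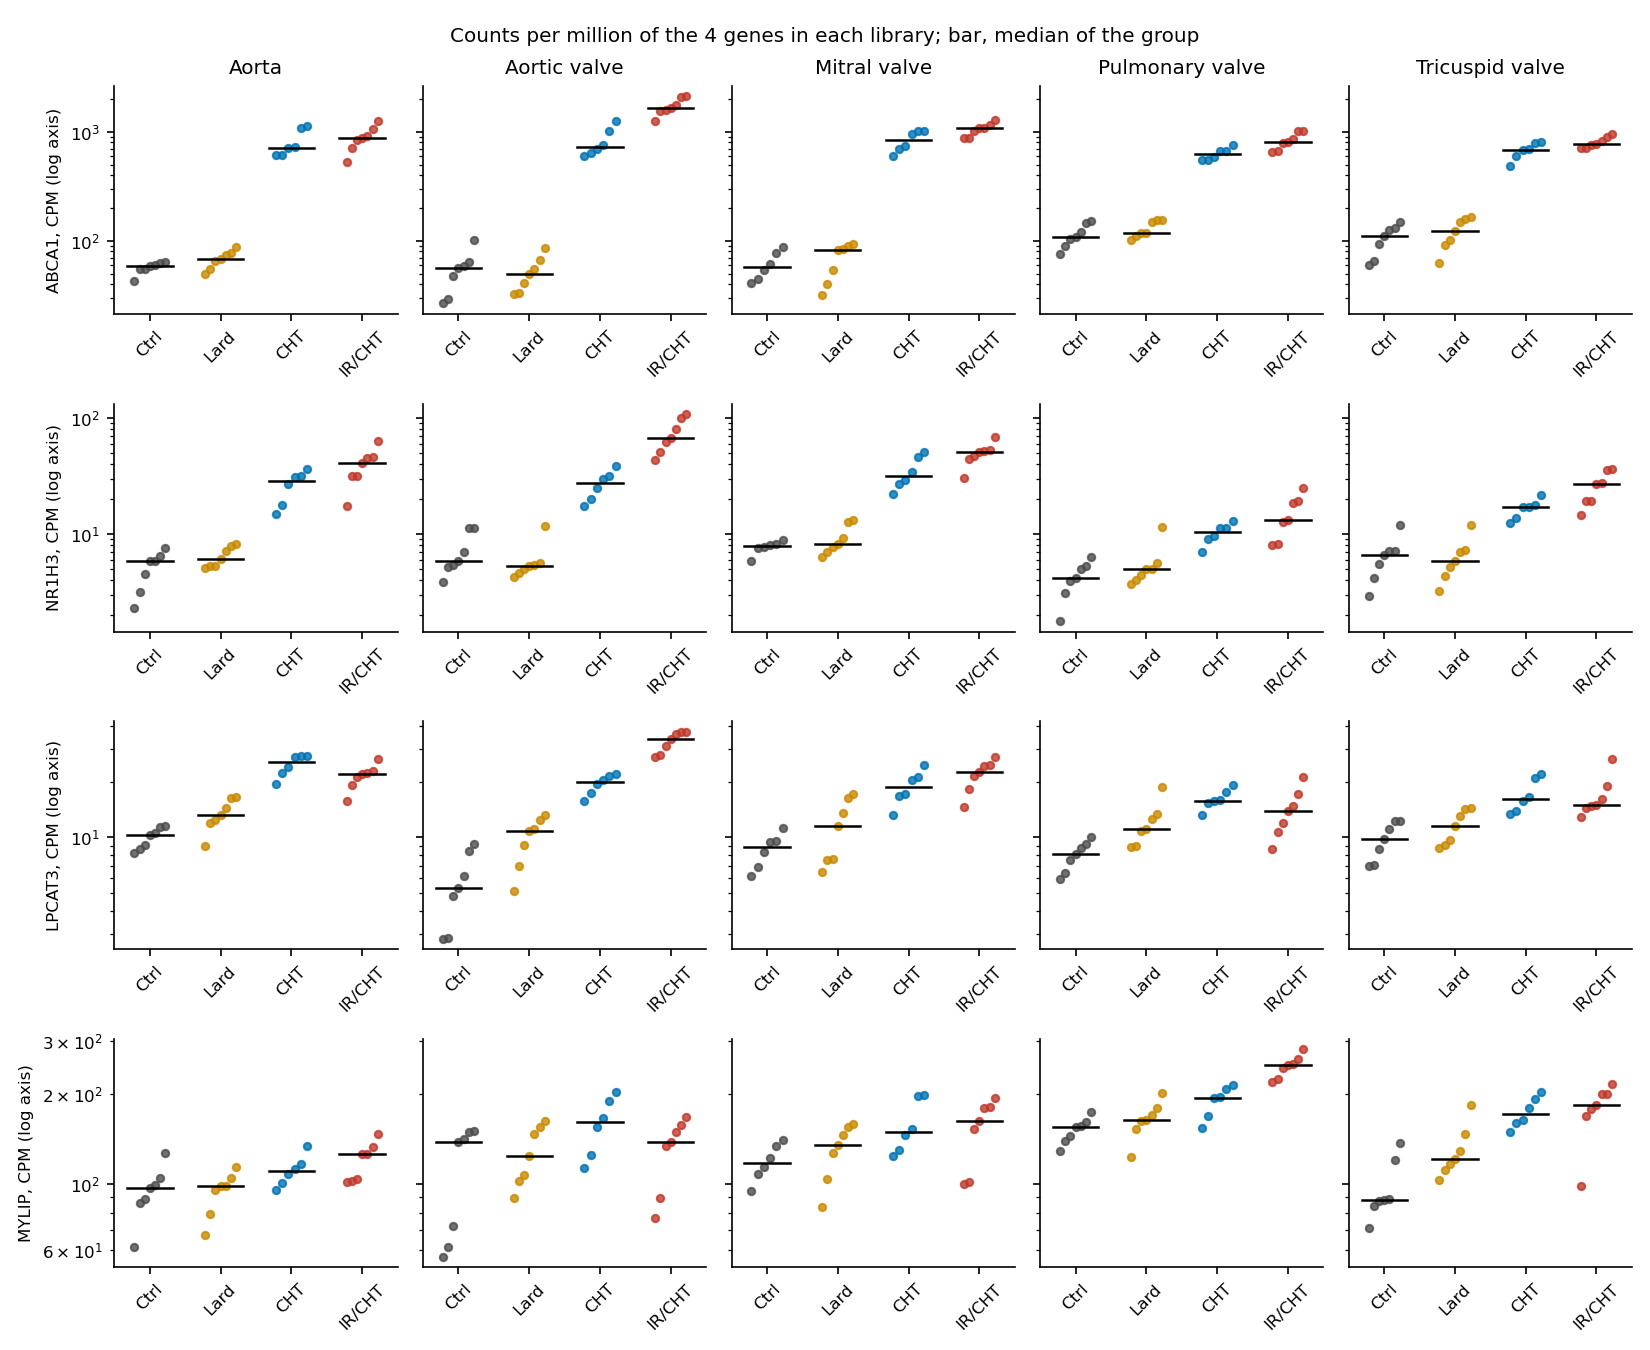
CPM of ABCA1, MYLIP, LPCAT3 and NR1H3 (rows, log axis) in each library of the 5 tissues (columns), by treatment; each point is a library and each bar a group's median. All CHT and IR/CHT points of ABCA1 and NR1H3 lie above those of Ctrl in the same tissue, while Ctrl and CHT points of MYLIP overlap in 4 of the 5 tissues.

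LPCAT3 was higher on cholesterol by a smaller amount. Aortic levels were 8.20 to 11.5 CPM in Ctrl (median 10.3) and 19.4 to 27.7 CPM in CHT (median 25.6). In the aortic valve Ctrl libraries lay at 2.81 to 9.17 CPM (median 5.34) and CHT libraries at 15.6 to 22.1 CPM (median 19.9). The mitral valve had 6.16 to 11.3 CPM (median 8.89) and 13.2 to 24.7 CPM (median 18.7). In these left-sided tissues the groups did not overlap, and the fitted log2 differences were 1.31 (SE 0.14), 1.78 (SE 0.24) and 1.14 (SE 0.23). The pulmonary valve held 5.95 to 10.1 CPM in Ctrl (median 8.07) against 13.3 to 19.1 CPM in CHT (median 15.8), a log2 difference of 1.02 (SE 0.19). The tricuspid valve held 6.99 to 12.3 CPM in Ctrl (median 9.79) against 13.4 to 21.9 CPM in CHT (median 16.1), a log2 difference of 0.81 (SE 0.19). LPCAT3 in IR/CHT rabbits differed from Ctrl by 1.11 in the aorta, 2.55 in aortic valves, 1.35 in mitral valves, 0.81 in pulmonary valves and 0.80 in tricuspid valves on the log2 scale. Only in the pulmonary valve did the IR/CHT range (8.62 to 21.3 CPM) reach into that of Ctrl.

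MYLIP differed least between CHT and Ctrl, apart from the tricuspid valve. The aorta held 61.6 to 127 CPM in Ctrl (median 97.0) and 95.1 to 134 CPM in CHT (median 110), and the groups overlapped. The same held for the aortic valve, with medians of 138 CPM and 160 CPM, the mitral valve, with 118 CPM and 149 CPM, and the pulmonary valve, with 155.3 CPM and 194.3 CPM. The tricuspid valve was the exception, with 71.1 to 137 CPM in Ctrl (median 88.1) and 149 to 203 CPM in CHT (median 171.4). From aorta to tricuspid valve, in the order used above, the log2 differences were 0.22 (SE 0.13), 0.53 (SE 0.24), 0.42 (SE 0.18), 0.32 (SE 0.10) and 0.85 (SE 0.16). IR/CHT libraries of the pulmonary valve, at 219 to 282 CPM (median 250), also lay wholly above Ctrl, a log2 difference of 0.71. In the other tissues IR/CHT overlapped Ctrl, with log2 differences of 0.33 in the aorta, 0.24 in aortic valves, 0.36 in mitral valves and 0.88 in tricuspid valves, where 6 of 7 IR/CHT libraries lay above the highest Ctrl. Ctrl aortic valves fell into a lower set of 3 libraries at 57.0, 61.5 and 72.4 CPM and a higher set of 4 at 138 to 150 CPM.

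A gene is called here if its adjusted p from edgeR's quasi-likelihood test is under 0.05 and its fold change over 1.5. By that rule, CHT against Ctrl called 19.4% of all genes tested in the aorta, 11.9% in aortic valves, 5.62% in mitral valves, 0.159% in pulmonary valves and 0.163% in tricuspid valves. IR/CHT against the same Ctrl libraries called 34.3%, 42.8%, 17.7%, 0.706% and 0.231%, in that order. As the 4 genes were chosen on these contrasts, no call is made for them there.

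**Figure D2:**
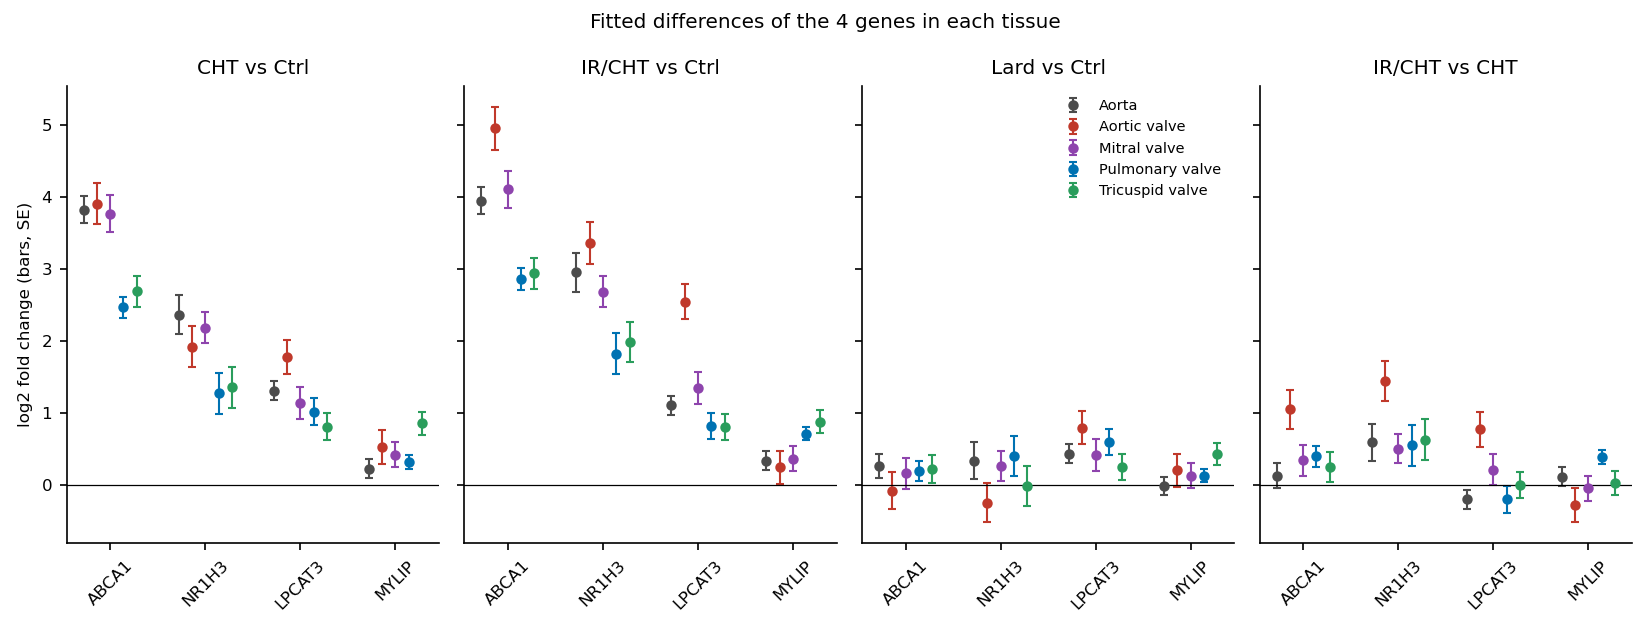
Fitted log2 fold changes of the 4 genes (x axis) with their SE as bars, 1 colour per tissue and 1 panel per comparison. ABCA1 lies between 2.47 and 3.91 in CHT against Ctrl, Lard against Ctrl lies between -0.25 and 0.79 for the 4 genes, and the aortic valve stands above the other tissues in IR/CHT against CHT for ABCA1, NR1H3 and LPCAT3.

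In bulk tissue, more cells of a type and more RNA per cell cannot be told apart, and the tissues differed in macrophage markers. Of 15 markers, including CD68, CSF1R and the C1Q genes, 13 rose in CHT aortas, 9 in CHT aortic valves and 12 in CHT mitral valves against Ctrl. In the pulmonary valve 0 of 15 and in the tricuspid valve 0 of 14 were called by edgeR, with 5 and 3 at an unadjusted p under 0.05 and 0 and 1 called by DESeq2. Their median log2 differences in these valves were 0.38 and 0.38, against 0.00 and -0.05 for all genes. CD68 rose by log2 4.19 in the aorta, 2.96 in aortic valves and 2.65 in mitral valves, against 0.25 and 0.36, not called, in the pulmonary and tricuspid valves. The summed markers went from 68.3 to 291 CPM in Ctrl aortas to 514 to 1385 CPM in CHT. In the aortic valve they went from 231.8 to 703.2 CPM to 1052 to 1533 CPM, and in the mitral valve from 273.3 to 811.7 CPM to 819 to 1588 CPM. Pulmonary valves held 658 to 841 CPM in Ctrl and 630 to 989 CPM in CHT, and tricuspid valves 597 to 873 CPM and 631 to 960 CPM. In IR/CHT the medians were 998 CPM in pulmonary valves (Ctrl 785) and 977 CPM in tricuspid valves (Ctrl 683), and 3 of 15 and 2 of 14 markers rose against Ctrl by edgeR, with 13 and 10 at an unadjusted p under 0.05 and 6 and 5 called by DESeq2. Of the IR/CHT pulmonary valves, L275 alone, at 323.9 CPM, lay below the highest Ctrl valve. Other cell markers moved as well. In CHT aortas 5 of 6 endothelial markers rose (sum 136 to 819 CPM against 77.2 to 164 CPM in Ctrl) and 3 of 5 smooth muscle markers fell (sum 27973 to 70188 CPM against 72277 to 100267 CPM), while 2 of 5 fibroblast markers rose and 1 of 5 heart muscle markers fell. In CHT aortic valves 5 of 5 heart muscle markers fell (sum 14.6 to 336 CPM against 159.1 to 11597 CPM), and of 5 smooth muscle markers 1 rose and 1 fell. In CHT mitral valves 2 of 5 smooth muscle markers rose (sum 502 to 1446 CPM against 169.5 to 449 CPM). In CHT pulmonary valves 0 of 5 heart muscle markers were called by edgeR, with 5 at an unadjusted p under 0.05 and 4 called lower by DESeq2 (sum 15.3 to 52.9 CPM against 36.8 to 5313 CPM). Their part in the levels of the 4 genes was not tested. MARCO, a marker of a macrophage subset, had a mean under 1 CPM in every tissue and treatment except IR/CHT aortic, mitral and pulmonary valves. MSR1 was also under 1 CPM in Ctrl aortas.

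Libraries of the same treatment were also compared among themselves, a choice made after the data were seen. Within treatments, the log2 level of ABCA1 went with the log2 macrophage sum in the aorta (Pearson r = 0.72, Spearman rho = 0.71, 27 libraries). The adjusted p over 20 such relations was 0.0002 for r and 0.002 for rho by a permutation test with 100000 resamples, where 1e-05 was the smallest raw p they could give. Without the 2 libraries farthest from the median sum, r was 0.67. In the mitral valve r was 0.69 (rho 0.74, permutation adjusted p 0.0174 and 0.0058), 0.67 without the 2 farthest libraries and 0.63 within plates. LPCAT3 in the mitral valve gave r = 0.64 (rho 0.59, permutation adjusted p 0.0174 and 0.0303), 0.55 without the 2 farthest libraries and 0.62 within plates. For ABCA1 in the aortic valve, r was 0.43 (permutation adjusted p 0.136) and rho 0.58 (permutation adjusted p 0.0289). ABCA1 gave r = 0.30 in pulmonary valves and -0.10 in tricuspid valves (permutation adjusted p 0.237 and 0.709). LPCAT3 in pulmonary valves gave r = 0.52 (rho 0.35, permutation adjusted p 0.0826 and 0.167), 0.65 within plates but 0.29 without the 2 farthest libraries. NR1H3 gave r = 0.46 in the aorta (rho 0.52, permutation adjusted p 0.105 and 0.0448), and -0.40 and -0.43 in pulmonary and tricuspid valves (permutation adjusted p 0.130 and 0.0999 for r). Differences between tissues in these relations were not tested.

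**Figure D3:**
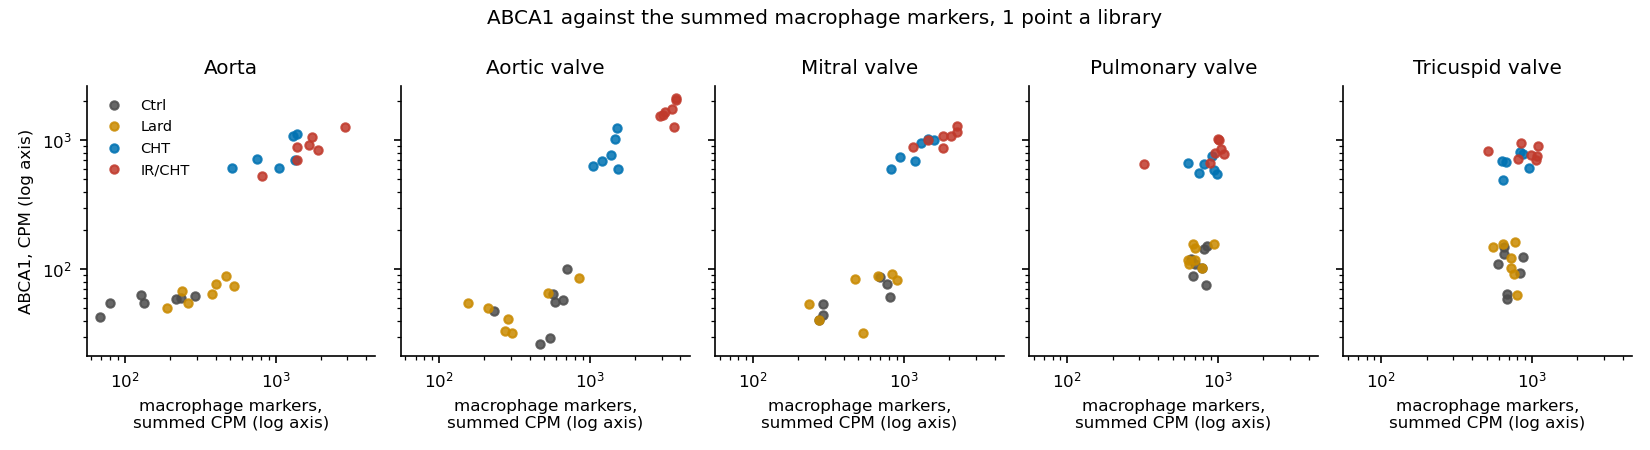
ABCA1 (CPM, log axis) against the summed CPM of the macrophage markers (log axis), 1 panel per tissue and 1 point per library, coloured by treatment. In the left-sided tissues both are higher in CHT and IR/CHT than in Ctrl, and in the pulmonary and tricuspid valves ABCA1 is higher in CHT and IR/CHT than in Ctrl, and the marker sums of CHT overlap those of Ctrl.

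The effect of irradiation was read from IR/CHT against CHT. This contrast itself took no part in choosing the genes, but its CHT and IR/CHT libraries both did. Its p-values for the 4 genes are therefore not independent of that choice. In the aortic valve NR1H3, ABCA1 and LPCAT3 rose further, while MYLIP did not pass. NR1H3 stood at 43.2 to 108 CPM in IR/CHT (median 68.1) against 17.4 to 38.5 CPM in CHT, a log2 fold change of 1.44 (SE 0.28, edgeR adjusted p 0.000516). ABCA1 stood at 1256 to 2107 CPM (median 1661) against 598 to 1242 CPM, a log2 fold change of 1.05 (SE 0.27, edgeR adjusted p 0.00528). LPCAT3 stood at 27.4 to 37.4 CPM (median 34.1) against 15.6 to 22.1 CPM, a log2 fold change of 0.77 (SE 0.24, edgeR adjusted p 0.0197). For each of these genes, the 7 IR/CHT valves lay above the highest of the 6 CHT valves. How many of all genes lay apart in this way, here and in the other tissues, was not counted. MYLIP stood at 76.8 to 166.8 CPM (median 138) against 113 to 203 CPM, with a log2 difference of -0.28 (SE 0.24, edgeR adjusted p 0.436). Across all genes of the aortic valve, 19.7% were called. Macrophage markers rose in the same valves, 11 of 15 being called, and their sum was 2918 to 3766 CPM in IR/CHT. Both T cell markers tested also rose, from a sum of 0.0865 to 3.58 CPM to one of 1.64 to 11.5 CPM, as did 1 of 3 neutrophil markers (sum 0.5689 to 1.3997 CPM in CHT and 1.81 to 5.57 CPM in IR/CHT), and 1 of 5 fibroblast markers fell. Their part in the rise of the 3 genes was not tested. Within plate 1, which held all CHT and 4 of the IR/CHT aortic valves, the log2 fold changes were 1.52 for NR1H3, 1.17 for ABCA1 and 0.75 for LPCAT3 (edgeR adjusted p 0.00191, 0.00477 and 0.00957). Without the CHT library L151 the edgeR adjusted p of LPCAT3 was 0.0501, while its log2 fold change lay between 0.69 and 0.85 with any of the 27 libraries left out.

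In the other tissues 0 of the 4 genes were called for IR/CHT against CHT by edgeR or DESeq2, where 0.596% of all genes were called in the aorta, 0.189% in mitral valves, 0.0761% in pulmonary valves and 0% in tricuspid valves. Before adjustment, p was under 0.05 for 1 of the 4 in the aorta, 1 in mitral valves, 2 in pulmonary valves and 1 in tricuspid valves. The log2 differences of NR1H3 were 0.59, 0.50, 0.55 and 0.63 in these 4 tissues, with edgeR adjusted p of 0.185, 0.283, 0.228 and 0.480. Within plates 1 and 2 alone, NR1H3 differed by 0.20 and 1.26 in pulmonary valves and by 0.21 and 1.16 in tricuspid valves, none called. The log2 differences of ABCA1 in the 4 tissues were 0.13, 0.34, 0.40 and 0.25 (edgeR adjusted p 0.672, 0.524, 0.120 and 0.559). MYLIP in the pulmonary valve was 153.2 to 213.9 CPM in CHT and 219 to 282 CPM in IR/CHT, so that 7 of 7 irradiated valves lay above CHT, but its log2 difference of 0.39 had an edgeR adjusted p of 0.0712. Macrophage markers in these tissues had 0 called by edgeR, with 6 (aorta), 7 (mitral), 5 (pulmonary) and 6 (tricuspid) at an unadjusted p under 0.05 and 1, 1, 3 and 0 called by DESeq2. Of 5 heart muscle markers, 2 rose in the aorta, where L566 stood apart with a sum of 2538 CPM and the medians were 294 CPM in IR/CHT and 296 CPM in CHT. In the pulmonary valve 0 of 5 heart muscle and 0 of 5 smooth muscle markers were called by edgeR, with 4 and 5 at an unadjusted p under 0.05 and 3 and 3 called higher by DESeq2. For LPCAT3 the differences were -0.20 in the aorta, 0.21 in mitral valves, -0.20 in pulmonary valves and 0.00 in tricuspid valves (edgeR adjusted p 0.360, 0.698, 0.502 and 0.992).

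Whether the response to irradiation differed between the 5 tissues was tested as an interaction in 1 fit of all libraries, where 12% of the genes tested passed. LPCAT3 passed with an edgeR adjusted p of 0.0211, and ABCA1 (0.110), NR1H3 (0.260) and MYLIP (0.432) did not. Since libraries of a rabbit deviated together, the test was repeated with the rabbit as a block, chosen after the data were seen. With 16% of genes passing, LPCAT3 then had an adjusted p of 0.00227 and MYLIP one of 0.0488, with ABCA1 at 0.103 and NR1H3 at 0.115. LPCAT3 no longer passed without the aorta (edgeR adjusted p 0.0810) or with no filter on low counts (0.0709). A difference in the irradiation response between tissues was therefore not shown for ABCA1 and NR1H3, although only the aortic valve was called on its own.

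The rabbit, rather than the library, was the unit in a further comparison chosen after the data were seen, of each rabbit's mean log2 level over its tissues (limma). The Ctrl rabbit without a mitral valve library was averaged over 4 tissues. There, 17.3% of 13564 genes were called for IR/CHT against CHT. NR1H3 was higher in IR/CHT by 0.71 (SE 0.17, adjusted p 0.00732), and 7 of 7 irradiated rabbits lay above the highest CHT rabbit. ABCA1 was also above the highest CHT rabbit in 7 of 7, by 0.44 (SE 0.17), with an adjusted p of 0.0653. How many of all genes had rabbits apart in this way was not counted. LPCAT3 and MYLIP differed by 0.10 and 0.03 (adjusted p 0.627 and 0.903). Without the aortic valve, NR1H3 differed by 0.53 (adjusted p 0.0696) and ABCA1 by 0.28 (adjusted p 0.243).

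The lard diet, with the same vitamin D2 but no cholesterol, called 0 of the 4 genes in each of the 5 tissues by edgeR and by DESeq2. The share of all genes called was 2.61% in the aorta, 0.234% in aortic valves, and 0% in the mitral, pulmonary and tricuspid valves, where 253, 360 and 1200 genes had an unadjusted edgeR p under 0.05 and DESeq2 called 0, 1 and 0. ABCA1 was 49.95 to 88.26 CPM in Lard aortas (median 67.9), which overlapped Ctrl at 42.7 to 63.5 CPM. Its log2 differences were 0.26, -0.08, 0.16, 0.20 and 0.22 from aorta to tricuspid valve. NR1H3 differed by 0.33, -0.25, 0.26, 0.40 and -0.02 in the same order, and MYLIP by -0.02, 0.20, 0.13, 0.12 and 0.43.

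LPCAT3 came nearest to a call on lard. It was 8.96 to 16.4 CPM in Lard aortas (median 13.3) against 8.20 to 11.5 CPM in Ctrl, with 6 of 7 Lard libraries above the highest Ctrl. The log2 difference was 0.43 (SE 0.13, edgeR adjusted p 0.0824). In the same Lard aortas 8 of 15 macrophage markers rose (sum 190 to 527 CPM, median 378, against 68.3 to 291 CPM, median 134, in Ctrl), as did 1 of 6 endothelial markers, 6 of 6 being at an unadjusted p under 0.05 (sum 174.03 to 436 CPM against 77.2 to 164 CPM), and 1 of 2 neutrophil and 1 of 5 fibroblast markers. The neutrophil sum had a median of 0.970 CPM in Lard and 1.05 CPM in Ctrl aortas, with L562 standing apart at 19.6 CPM. Their part in the level of LPCAT3 was not tested. In the aortic valve the LPCAT3 difference was 0.79 (SE 0.23, adjusted p 0.255), in the mitral valve 0.42 (SE 0.22, 0.99999), in the pulmonary valve 0.59 (SE 0.18, 0.9997) and in the tricuspid valve 0.25 (SE 0.18, 0.756), all by edgeR. Before adjustment, an edgeR p under 0.05 was given to 1 of the 4 genes in the aorta, 1 in aortic valves, 0 in mitral valves, 1 in pulmonary valves and 1 in tricuspid valves. In a single fit of all tissues, LPCAT3 was called in the aortic valve (log2 0.80, edgeR adjusted p 0.0180), where 1.36% of all genes were called in that valve. Its log2 difference in that valve was 1.51 within plate 1 alone and 0.28 within plate 2 alone, neither called (edgeR adjusted p 0.207 and 0.9995). In the same Lard aortic valves 4 of 5 heart muscle markers fell by edgeR and 5 by DESeq2 (sum 20.05 to 228.2 CPM against 159.1 to 11597 CPM in Ctrl), and their part in these LPCAT3 values was not tested. Over rabbit means, LPCAT3 differed by 0.48 (SE 0.14, limma adjusted p 0.658, 0% of 13564 genes called and 703 at an unadjusted p under 0.05). The Lard response of the 4 genes was not shown to differ between tissues (edgeR adjusted p 0.702 to 0.935), where 1.81% of genes passed.

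Ctrl rabbits give the levels on the normal diet (mean and SD over 7 rabbits, 6 for the mitral valve). In a fit of all libraries on 1 scale, mean ABCA1 followed the ascending order aortic valve (53.6 ± 24.0 CPM), mitral valve (56.3 ± 16.6), aorta (65.2 ± 8.11), tricuspid valve (105 ± 36.2) and pulmonary valve (108 ± 26.1). The first 3 did not differ from each other by call, nor did the last 2, but each of the right-sided valves was above each of the others. The log2 difference of the aortic valve from the pulmonary valve was -1.01 (edgeR adjusted p 1.6e-05), and that of the aorta from the tricuspid valve -0.69 (0.00381). LPCAT3 ran from 5.51 ± 2.39 CPM in the aortic valve through 7.59 ± 1.44 (pulmonary), 7.97 ± 1.73 (mitral) and 9.80 ± 2.54 (tricuspid) to 11.4 ± 1.57 CPM in the aorta. It was called higher in the aorta than in the aortic valve (log2 1.05, edgeR adjusted p 2.4e-06) and the pulmonary valve (0.59, 0.0081), and lower in the aortic than in the tricuspid valve (-0.83, 0.000357). The call of aorta over pulmonary valve was lost, with the log2 difference under the fold limit, with DESeq2 size factors (0.54), with no filter (0.53) and with the plate as a covariate (0.48). NR1H3 ran from 4.04 ± 1.46 CPM in the pulmonary valve through the aorta (5.85 ± 2.08), the tricuspid valve (6.45 ± 2.56) and the aortic valve (7.00 ± 2.90) to 7.15 ± 0.954 CPM in the mitral valve, with the aortic (log2 0.79, edgeR adjusted p 0.00833) and mitral (0.82, 0.0164) valves called above the pulmonary valve. MYLIP ran from 97.1 ± 24.8 CPM in the tricuspid valve to 143 ± 14.4 CPM in the pulmonary valve and no pair was called. Beside these 11 calls of 40, the share of all genes called was 49.7% for aorta against aortic valve, 32.2% against mitral, 38.7% against pulmonary and 31.1% against tricuspid valve. It was 12.2% for aortic against mitral, 47.3% against pulmonary and 38.7% against tricuspid valve, 24.4% for mitral against pulmonary, 6.65% for mitral against tricuspid and 15.2% for pulmonary against tricuspid valve. Apart from the aorta and the tricuspid valve for ABCA1, no neighbours in these orders were called different. In a fit of the Ctrl libraries alone with the rabbit as a block, MYLIP was also called higher in pulmonary than in tricuspid valves (log2 0.60, edgeR adjusted p 0.0057), which made 12 calls.

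The other genes of the pathway, 72 of the 98 listed, were matched by symbol, and 55 to 61 were tested per tissue. ABCG1, APOE, SREBF1, SCD, ABCA7, LPCAT1 and RXRA could not be matched and are not used here. In CHT against Ctrl, 13 of 59 rose and 12 fell in the aorta, 7 of 60 rose and 13 fell in the aortic valve, and 6 of 61 rose and 11 fell in the mitral valve, where 19.4%, 11.9% and 5.62% of all genes were called. None rose and 8 of 55 fell in the pulmonary valve, and none rose and 7 of 57 fell in the tricuspid valve (edgeR, with 18 and 20 at an unadjusted p under 0.05 and 9 and 8 called by DESeq2). These valves had 23 and 24 genes called in all, so that 8 and 7 of them were pathway genes.

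Few receptors and coregulators of LXR were called. NR1H2, which encodes LXRβ, was called in none of the 5 tissues in any comparison by edgeR, with log2 values of -0.67 in the aorta and -1.18 in aortic valves on CHT (adjusted p 0.263 and 0.137). In CHT aortic valves NRIP1, a corepressor, rose by 0.86 on the log2 scale (edgeR adjusted p 0.0440), 1 of the 7 tested there. CH25H, the enzyme that makes 25-hydroxycholesterol, rose in CHT aortas by log2 3.00 (SE 0.42, edgeR adjusted p 4.79e-06) and in Lard aortas by 2.27 (adjusted p 0.00354), a call lost when only Lard and Ctrl were fitted. It was not called on CHT in the valves. CYP27A1, which makes 27-hydroxycholesterol, fell by 0.71 in CHT aortic valves on the log2 scale (edgeR adjusted p 0.0341).

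Among other LXR targets, PLTP, which transfers phospholipids between lipoproteins, rose with cholesterol in the left-sided tissues. Its level was 16.9 to 54.1 CPM in Ctrl aortas and 107 to 430 CPM in CHT, a log2 fold change of 3.08 (SE 0.40, edgeR adjusted p 1.37e-06). PLTP rose by 1.06 in the aortic valve and 1.91 in the mitral valve (edgeR adjusted p 0.0261 and 0.000239), and had log2 values of 0.49 and 0.23, not called, in the pulmonary and tricuspid valves. LPCAT2 was listed here as another acyltransferase of phospholipids, not as an LXR target, and also makes the inflammatory lipid PAF. It rose by 5.06 in the aorta, 1.82 in aortic valves and 1.60 in mitral valves, against 0.30 and 0.49, not called, in the right-sided valves. LPL, which hydrolyses triglycerides of lipoproteins, was not called on CHT in any tissue by edgeR. ABCA3 and ABCA6 were listed as other ABCA transporters, not as LXR targets. ABCA3 rose by 2.53 in the aorta and by 1.70 in the mitral valve, and ABCA6 by 1.70 in the aorta. The fatty acid targets had 1 of 4 called in the aorta, ELOVL5 (log2 0.62, edgeR adjusted p 0.000119). In each valve 0 of 4 were called by edgeR and by DESeq2, with 2 (aortic), 1 (mitral), 2 (pulmonary) and 3 (tricuspid) at an unadjusted p under 0.05.

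VLDLR, a lipoprotein receptor that MYLIP acts on, rose in the left-sided tissues, by 3.02 in the aorta, 1.62 in aortic valves and 1.58 in mitral valves, with -1.05 and -0.77, not called, in the pulmonary and tricuspid valves. Of 11 SREBP2 targets tested, 9 fell in the aorta, 9 in aortic valves, 9 in mitral valves, 6 in pulmonary valves and 5 in tricuspid valves. SQLE, an early enzyme of sterol synthesis, fell in each tissue, by 1.81, 1.70, 2.44, 2.05 and 2.02 on the log2 scale from aorta to tricuspid valve. STARD4, a carrier of sterols inside cells, was the exception, rising by 0.80 in the aorta and 1.48 in aortic valves.

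**Figure D4:**
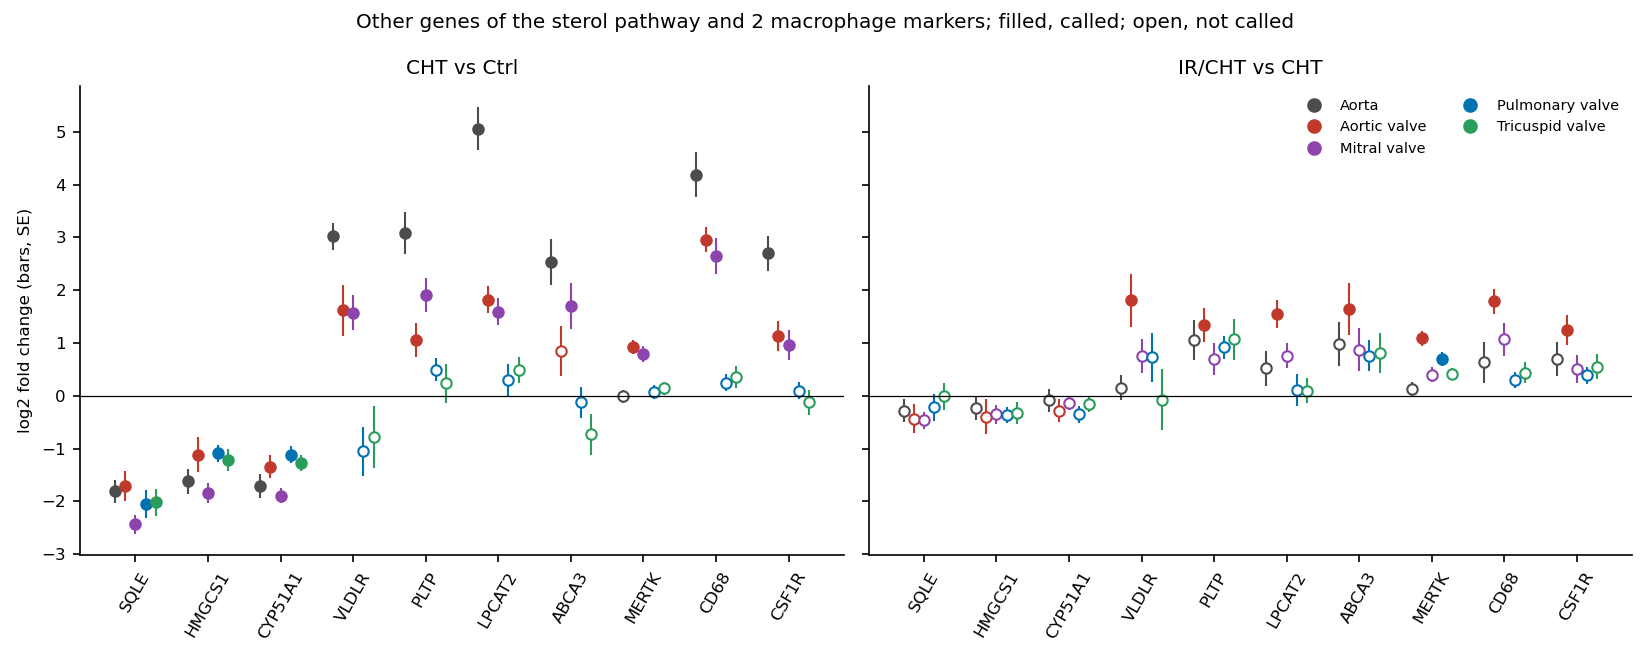
Fitted log2 fold changes (y axis, bars for SE) of other genes of the sterol pathway and of the macrophage markers CD68 and CSF1R, 1 colour per tissue; filled points were called and open points were not. SQLE is below 0 and filled in all 5 tissues on CHT, while PLTP, LPCAT2, VLDLR and CD68 are filled above 0 in the left-sided tissues but open in the pulmonary and tricuspid valves.

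With irradiation on top of cholesterol, 17 of 60 pathway genes rose and 6 fell in the aortic valve, where 19.7% of all genes were called. It is the same valve in which the 3 genes rose. PLTP rose by log2 1.34 (SE 0.33, edgeR adjusted p 0.00371), LPL by 2.57 (SE 0.61, 0.00292) and SMPDL3A by 0.94 (0.0201), as did APOC1 and CETP. In all, 6 of the 7 sterol efflux and lipoprotein targets tested rose, not each of which is named. MERTK, a receptor by which macrophages take up dying cells, rose by 1.09, and LPCAT2 by 1.55. VLDLR rose by 1.81 and LRP8, another such receptor, by 1.14 (edgeR adjusted p 0.00947 and 0.00611). ABCA3, ABCA4 and ABCA6 rose by 1.64, 1.68 and 1.91. CD68 rose by 1.79 and CSF1R by 1.24 in the same libraries. In the aorta, mitral valve and tricuspid valve 0 pathway genes were called by edgeR, with 17, 15 and 5 at an unadjusted p under 0.05 and 2, 0 and 0 called by DESeq2, and in the pulmonary valve MERTK alone was called (log2 0.70, edgeR adjusted p 0.0236, against 5 genes by DESeq2). Without L176, MERTK was not called (log2 0.56, edgeR adjusted p 0.0510). On lard, 3 pathway genes rose in the aorta, where 2.61% of all genes were called. They were CH25H, LPCAT2 (log2 1.81) and ABCA6 (1.34), beside the macrophage markers given above. None of the 3 was called when only Lard and Ctrl aortas were fitted. In each valve 0 were called on lard by edgeR, where 6 (aortic), 2 (mitral), 1 (pulmonary) and 7 (tricuspid) had an unadjusted edgeR p under 0.05 and DESeq2 called 1 in the aortic valve and 0 in the others.

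The patterns of the 4 genes were also compared with those of 13564 genes over the 134 libraries, as the Pearson correlation of log2 CPM less the Ctrl mean of the tissue. These values describe libraries that share rabbits, diets and tissues. ABCA1 was most like GPNMB (0.87), EEPD1 (0.85), C1orf162 (0.85), ADAMTS14 (0.84) and ASPA (0.84). NR1H3 was most like EEPD1 (0.86), CFP (0.86), PLTP (0.86), IKZF1 (0.86) and PSAP (0.85), and LPCAT3 was most like HPRT1 (0.86), ADAM9 (0.85), CD44 (0.85) and LIPA (0.84). MYLIP had lower values, led by RPL4 (0.64), IL6ST (0.62), EIF3E (0.62), ZNF34 (0.60) and RPL10 (0.60). Among the 4 genes, ABCA1 and NR1H3 gave 0.91, ABCA1 and LPCAT3 0.83, and LPCAT3 and NR1H3 0.75. MYLIP gave 0.45 with ABCA1, 0.40 with LPCAT3 and 0.31 with NR1H3.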

How the data were processed

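Libraries were made from total RNA with a stranded low-input kit (SMARTer Stranded Total RNA Pico v2). Per the labels and the study's methods, the authors aligned and counted reads per gene with nf-core/rnaseq. The submitters' processing notes name bcl2fastq 2.20 and the build OryCun2.0. The deposited values are raw counts per gene, with no normalization. The methods give the pipeline's default settings apart from trimming and name no strand option. In RefSeq's rabbit annotation LPCAT3 holds a long non-coding RNA and NR1H3 lies between MADD and ACP2, so reads of overlapping genes cannot be told apart. Gene names were taken from the tables, which pair 14716 of 29587 genes with a symbol.

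Counts were scaled by TMM and tested per tissue with edgeR 4.0.16 (R 4.3.3) in 1 quasi-likelihood fit of the 4 treatments, after filterByExpr, with Benjamini-Hochberg adjustment over all genes tested. CPM are the same scaled counts. DESeq2 1.42.0 was an alternative, and limma 3.58.1 was used on rabbit means (log2 CPM, prior count 2). Rabbits were read from the column names. Libraries of 1 rabbit deviated together (median correlation of their deviations 0.227 to 0.545 between pairs of tissues), so fits with the rabbit as a block were added. The fits were tested on simulated counts. The 4 genes, the pathway and marker lists and the tests were chosen with earlier results of these data known. Named genes were the 4 genes, up to 3 called genes per pathway list by smallest p, a fixed set of receptors, targets and markers, and the 5 nearest genes of each of the 4, plus genes that a count of 5 or fewer, or the text, singles out after their values were seen. A few genes of these sets are not reported here. No 2 libraries held identical values. Counts from a pipeline without molecular identifiers carry more than counting error. The p-values of fits within a tissue and of rabbit means measure the spread between rabbits of this study. Fits of all tissues without the rabbit as a block treated libraries of a rabbit as separate, so their p-values measure the spread between libraries.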

Additional observations from a re-analysis of the deposited data

Results flagged for a closer look

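Among 80 groups of libraries (4 genes, 5 tissues and 4 treatments), 4 held a library that stood apart by Dixon's ratio, the gap to the nearest library over the whole range, compared with its critical value for the group's size. Chance alone gives about 1 such group in 20. In Ctrl aortas, L569 was the lowest for ABCA1 (ratio 0.585). In Lard rabbits, L269 was the highest aortic valve for NR1H3 (0.816), at 11.8 CPM, and L271 the highest pulmonary valve for NR1H3 (0.751), at 11.5 CPM. In IR/CHT tricuspid valves, L197 was the lowest for MYLIP (0.593), at 98.1 CPM.

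The response of LPCAT3 to irradiation on the cholesterol diet differed between the 5 tissues, by the interaction test of edgeR (adjusted p 0.0211). That test was passed by 12% of genes. LPCAT3 no longer passed it without the aorta (edgeR adjusted p 0.0810) or with no filter on low counts (0.0709). Its log2 difference of IR/CHT from CHT was 0.77 in aortic, 0.21 in mitral and 0.00 in tricuspid valves, and -0.20 in both the aorta and the pulmonary valve.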

How the results depend on the processing

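Over the alternatives tried, the count of the 4 genes called, summed over tissues, ran from 2 to 3 for IR/CHT against CHT (3 as reported). The pathway genes called ran from 59 to 84 (77), 115 to 130 (121) and 16 to 31 (24) for CHT and for IR/CHT, each against Ctrl, and for irradiation on top of cholesterol, and the calls between Ctrl tissues from 10 to 12 (11). On lard, the 4 genes gave 0 calls, and 1 in a single fit of all 5 tissues, in the aortic valve, where 1.36% of all genes were called. The 3 pathway genes called on lard became 7 with DESeq2, 0 when only the 2 groups compared were fitted, and 2 to 5 when each replicate was left out. For the irradiation response across tissues, the 1 call became 0 with no filter, 0 without the aorta and 2 with the rabbit as a block, and over rabbit means the 1 call became 0 without the aortic valve. The cause was not tested. Within plate 2 alone, ABCA1 in the mitral valve differed by 3.75 (IR/CHT against Ctrl), MYLIP and LPCAT3 in the pulmonary valve by 0.10 and 0.77 and NR1H3 in the tricuspid valve by 0.70 (CHT against Ctrl, log2). No called value of the 4 genes changed sign. Values not called did, such as ABCA1 on lard, at 0.54 in the aortic valve within plate 1 and -0.31 in the mitral valve within plate 2. The lowest raw count in a library was 36 for LPCAT3 and 25 for NR1H3.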
